A study of Arabidopsis thaliana with 20 samples.

Results

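The genes described here are 10 large chaperones, co-chaperones and regulators of the heat shock response of Arabidopsis thaliana, of 33201 genes measured by RNA sequencing in root cells. They are the chaperones HSP101 (AT1G74310), HSP70 (AT3G12580), HSP70B (AT1G16030) and HSP90.1 (AT5G52640), the co-chaperones FES1A (AT3G09350), HOP3 (AT4G12400) and BAG6 (AT2G46240), and the transcription factors HSFA2 (AT2G26150), HSFA7A (AT3G51910) and DREB2A (AT5G05410). All 10 were found in the table, and all 10 passed the filter on low values. They were chosen by their identifiers, and the set was selected on the measured FPKM difference between the zone labels, so for these genes that difference is given as a description with no test.

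Every group had the same genotype: ecotype Col-0 with the PET111:GFP line, whose GFP marks columella cells of the root cap, raised on medium with MS salts and sucrose; no heat treatment is named in the labels. Root tips of seedlings 3, 4, 5, 6 or 7 days old were cut, digested to protoplasts and sorted for cells without GFP. The labels give each sample as MZ, the meristematic zone, or as EZ, the zone of elongation, with 2 biological replicates per zone and age, which gives 10 groups and 20 libraries. Values are FPKM, fragments per kilobase of transcript scaled to the size of the library, so genes of different length can be set side by side. Between libraries FPKM is a share of each library, and differences depend on the scaling chosen, as given below for all genes. Log2 values are on the log2(FPKM + 1) scale, which shrinks the differences of weakly expressed genes.

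In plants, as in other organisms, heat and other conditions that unfold proteins release heat shock factors (HSFs) of the HSFA1 group, which bind heat shock elements in promoters and switch on chaperone genes. HSP70 holds unfolded chains, HSP90 matures client proteins, and HSP101 pulls chains out of aggregates. HSFA2 and HSFA7A are themselves induced by heat and extend the response, and DREB2A, a factor of drought and heat responses, activates HSFA3. Some of these chaperones are also made in growing or developing tissue without heat.

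Across the libraries the zone labels stood against the markers of the zones they name. All 8 genes of dividing cells, among them the replication clamp PCNA1 and the meristem factor PLT1, passed the test as higher under EZ, and 3 of 5 genes of elongating and hair cells passed as lower. The libraries are therefore named by their labels throughout, and "under EZ" or "under MZ" means in the libraries with that label. From the steps between low FPKM values, depth came to 12.8 to 50.0 M fragments under EZ and 4.14 to 24.4 M under MZ, and 15912 to 19251 genes reached 1 FPKM. The median difference of all 22335 genes tested, EZ minus MZ, was 0.15; quantile normalisation moved it to -0.06 and median-of-ratios scaling to 0.06. In bulk samples such as these, fewer cells that express a gene and less RNA per cell cannot be told apart.

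The 4 chaperones had a higher mean under EZ than under MZ at each of the 5 ages, as did 24.9% of all genes tested. HSP101, the disaggregase, read 5.14 FPKM at the lowest, 15.6 at the median and 34.2 at the highest in the 10 libraries labelled EZ. In those labelled MZ it read 0 at the lowest, 2.44 at the median and 12.4 at the highest. The ranges overlapped through MZ day 6 replicate 2, at 12.4 FPKM, which lay above 3 of the libraries labelled EZ. The other 9 libraries labelled MZ, at 4.62 FPKM or less, lay below all 10 labelled EZ. The 0 stood in MZ day 7 replicate 2, where 4 of 2797 genes with a median of at least 50 FPKM were also listed at 0, so it is given as listed and no MZ mean is printed. The difference was 2.15 on the log2 scale over all libraries and 2.01 without that library.

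HSP70 was the most abundant of the 4 chaperones under both labels. It read 26.0, 83.7 and 210 FPKM at the lowest, median and highest under EZ, with a mean of 93.6 ± 50.2 (SD, n = 10), and 10.5, 20.3 and 43.5 FPKM under MZ, with a mean of 25.7 ± 12.5 (SD, n = 10). Of the 10 libraries labelled EZ, 9 lay above every library labelled MZ. HSP90.1, the heat-inducible cytosolic HSP90, averaged 23.9 ± 19.2 FPKM (SD, n = 10) against 4.80 ± 2.31 (SD, n = 10), and 8 of the 10 libraries labelled EZ lay above all labelled MZ. HSP70B, a second inducible HSP70, was the scarcest of the 4 under EZ, at 11.9 ± 7.29 FPKM (SD, n = 10) against 2.97 ± 1.15 (SD, n = 10), with 9 of 10 above. The log2 differences were 1.79 for HSP70, 1.77 for HSP90.1 and 1.48 for HSP70B.

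These heat-inducible forms were small parts of their families. HSP90.1 made up a median of 3.00% of the summed FPKM of the 4 cytosolic HSP90 genes under EZ, from 0.686% to 9.97%, and 2.61% under MZ, from 0.974% to 3.85%. The ranges of that share overlapped, and only the range under EZ reached above 3.85%. HSP70 and HSP70B together made up 5.54% of the cytosolic HSP70 sum, with HSC70-1, HSC70-2 and HSC70-3 as the rest, from 2.16% to 12.8% under EZ, and 3.45%, from 1.96% to 5.16%, under MZ. The highest share of both families in a library labelled EZ was in EZ day 4 replicate 2, and the lowest in EZ day 6 replicate 2.

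The 3 co-chaperones, too, had the higher mean under EZ at each of the 5 ages. BAG6, which carries a BAG domain that docks on HSP70, had the largest log2 difference of the 10 genes, 2.31. It read 7.93, 22.9 and 54.7 FPKM at the lowest, median and highest under EZ and 1.32, 3.90 and 8.12 under MZ. Only EZ day 6 replicate 2 reached into the MZ range, and at each single age both libraries labelled EZ lay above both labelled MZ. FES1A, a partner of cytosolic HSP70, had medians of 31.1 FPKM, from 13.9 to 71.0, and 9.87 FPKM, from 2.77 to 21.0, and a log2 difference of 1.64. Of its libraries labelled EZ 8 lay above all labelled MZ. HOP3, the adaptor that bridges HSP70 and HSP90, had the smallest difference of the 7 chaperones and co-chaperones, 1.06, at 27.5 ± 11.3 FPKM (SD, n = 10) against 11.9 ± 3.46 (SD, n = 10). HOP3 was also a larger part of its family than HSP90.1, or HSP70 and HSP70B together, were of theirs. Its median share was 32.8% of the summed FPKM of the 3 HOP genes under EZ and 26.6% under MZ. No such share was computed for HSP101.

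**Figure D1:**
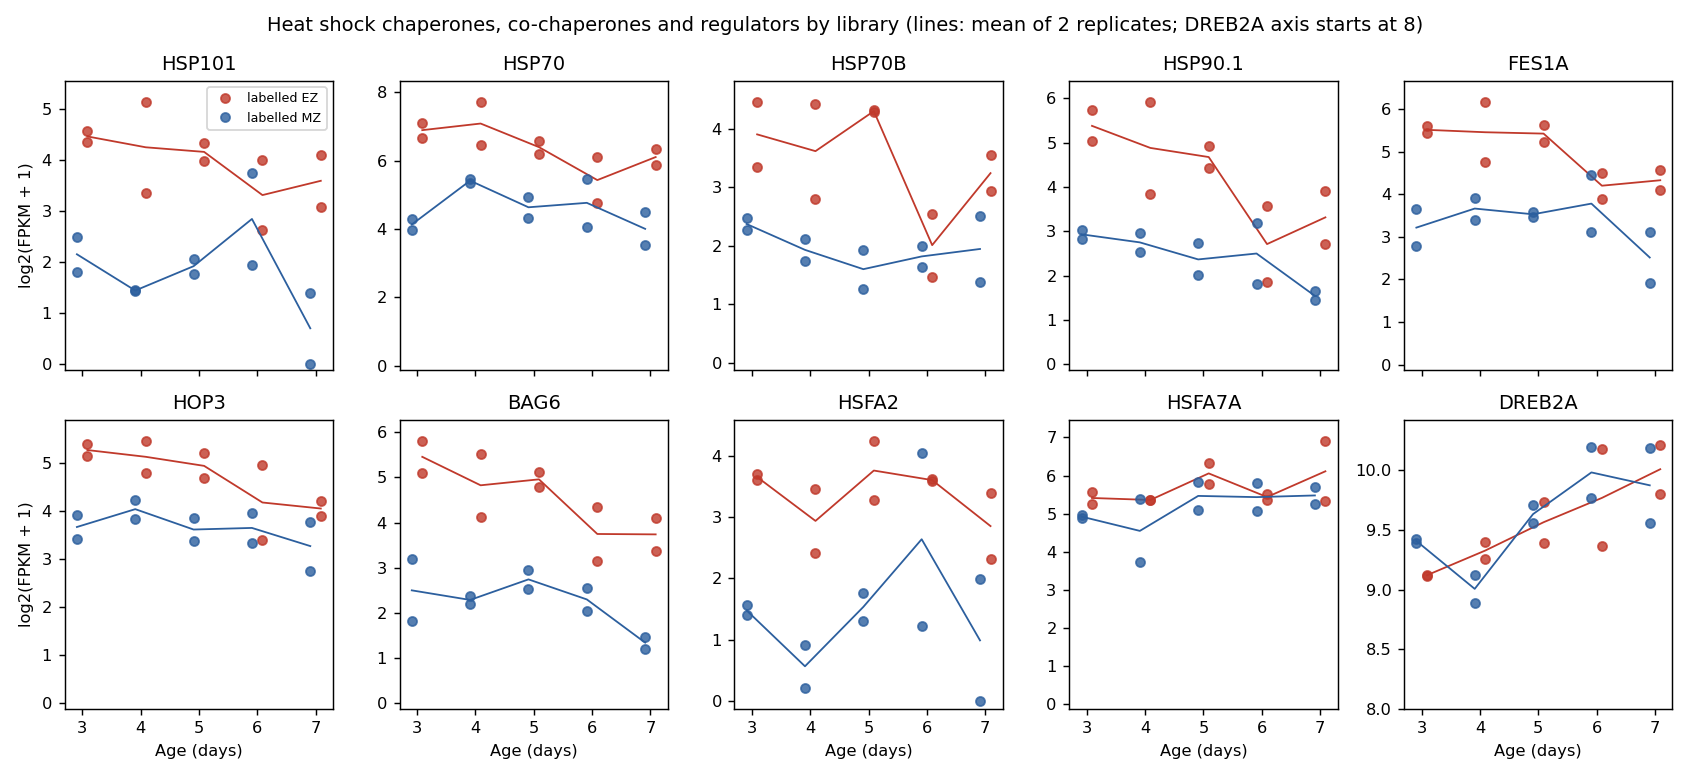
Level of each of the 10 genes as log2(FPKM + 1) against age in days, 1 point per library, red for libraries labelled EZ and blue for those labelled MZ, with lines through the means of 2 replicates. The 7 chaperones and co-chaperones and HSFA2 lie higher in red at each age, HSFA7A and DREB2A overlap between the labels, and the labels meet at day 6; the axis of DREB2A starts at 8.

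The 3 regulators differed from each other. HSFA2 had the higher mean under EZ at each of the 5 ages. It read 3.96, 10.5 and 17.85 FPKM at the lowest, median and highest under EZ, and 0, 1.56 and 15.5 under MZ, a log2 difference of 1.92. Of the libraries labelled MZ, 9 lay below every library labelled EZ, and the tenth, MZ day 6 replicate 2, was at 15.5 FPKM beside 1.34 in its replicate. The 0 of HSFA2 stood in MZ day 7 replicate 1. HSFA7A read 37.4, 42.5 and 118 FPKM under EZ and 12.2, 35.1 and 56.0 under MZ, with a log2 difference of 0.51, and 2 of the 10 libraries labelled EZ lay above all labelled MZ.

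DREB2A was the most abundant of the 10 genes and had nearly the same mean under both labels. The mean was 782 ± 235 FPKM under EZ and 794 ± 231 FPKM under MZ (SD, n = 10 each). Its log2 difference was -0.02, against 0.15 for the median of all genes, and its ranges, 554.5 to 1190 FPKM and 473.2 to 1175 FPKM, overlapped almost fully. By age the mean was higher under EZ at 2 of the 5 ages, days 4 and 7.

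In a search for exact letters, the promoter windows of the 3 regulators held complete heat shock elements. No such exact match was found in the windows of the chaperones and co-chaperones. The 250 bases before the annotated start of each gene (RefSeq annotation, TAIR10.1) were searched for 3 alternating units, GAANNTTCNNGAA or TTCNNGAANNTTC, on both strands. These letters stood in 0.386% of 27443 promoters of nuclear protein-coding genes and in those of HSFA2, HSFA7A and DREB2A. The shorter forms of 2 units, GAANNTTC or TTCNNGAA, which the longer forms contain, stood in 16.1% of promoters and, beside these 3 genes, in those of FES1A and BAG6. In the windows of HSP101, HSP70, HSP70B, HSP90.1 and HOP3 neither form was found. HSFA7A held a second complete element 192 bases before the start, and HSFA2 a separate pair of units 33 bases before it. For each gene the stretch around its longest element, the one nearest the start where there are several, is shown because heat shock factors are known to bind such letters; each runs 5′ to 3′ along the gene, with the element in capitals.
HSFA2, chr2:11135512-11135571, plus strand, element 88 bases before the start: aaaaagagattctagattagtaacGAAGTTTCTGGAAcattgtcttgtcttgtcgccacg
HSFA7A, chr3:19264975-19265034, plus strand, element 142 bases before the start: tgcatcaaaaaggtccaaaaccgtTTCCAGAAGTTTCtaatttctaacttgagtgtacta
DREB2A, chr5:1602017-1602076, plus strand, element 164 bases before the start: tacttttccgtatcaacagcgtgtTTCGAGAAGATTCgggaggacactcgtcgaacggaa
FES1A, chr3:2870883-2870942, plus strand, 2 units 63 bases before the start: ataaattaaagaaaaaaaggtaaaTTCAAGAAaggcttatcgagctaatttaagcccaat
BAG6, chr2:18986075-18986132, plus strand, 2 units 34 bases before the start: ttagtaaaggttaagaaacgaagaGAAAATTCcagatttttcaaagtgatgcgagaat
Among the 3 genes with complete elements, the log2 zone difference was 1.92 for HSFA2, 0.51 for HSFA7A and -0.02 for DREB2A. The core bound by DREB factors, ACCGAC or GCCGAC on both strands, stood in 7.09% of promoters and, of these 10 genes, in that of HSP70B. A match is a run of letters in a window, and none was tested as a binding site. Elements with altered letters or outside the 250 bases were not searched for, so a missing match does not show that a gene lacks them. The same search found complete elements in 2 of 15 small heat shock proteins and in 0 of 6 other HSP90 genes. It also found them in 1 of 19 other heat shock factors and in 1 of 9 partners and targets of the factors.

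For the 7 chaperones and co-chaperones the difference between the labels was smallest at day 6. At days 3, 4, 5 and 7 both libraries labelled EZ lay above both labelled MZ for 7 of the 7 chaperones and co-chaperones, where 32.6%, 22.2%, 35.2% and 31.5% of all genes did so. At day 6 this held for BAG6 alone, where 23.4% of all genes did so. The log2 difference of HSP101 was 2.31, 2.81, 2.24, 0.47 and 2.90 at days 3 to 7, where the day 7 value uses the library listed at 0 and is 2.20 without it. That of HSP70B was 1.54, 1.69, 2.71, 0.19 and 1.30. Both day 6 replicates numbered 2 departed from their label. EZ day 6 replicate 2 was the lowest of the 10 libraries labelled EZ for 7 of 7 chaperones and co-chaperones, and MZ day 6 replicate 2 was the highest of those labelled MZ for 3 of 7, HSP101, HSP90.1 and FES1A.

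**Figure D2:**
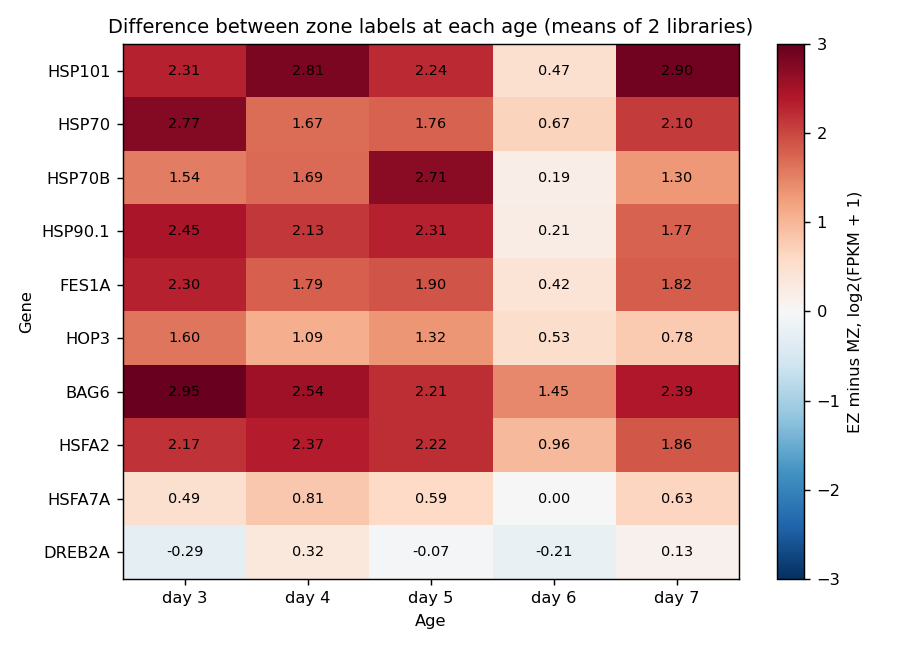
Difference between zone labels, EZ minus MZ in log2(FPKM + 1), for each gene (rows) at each age (columns), from the means of 2 libraries a label. The day 6 column is the palest for the chaperones and co-chaperones, 0.47 for HSP101 and 0.19 for HSP70B, and DREB2A takes both signs.

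Without these 2 libraries, left out after their values were seen, 6 of the 10 genes were fully separated between 9 and 9 libraries, HSP101, HSP70, HSP70B, FES1A, BAG6 and HSFA2, where 3.87% of all genes were; with them 0 of 10 were, where 0.927% of all genes were. The choice of genes used this contrast, so nothing is read from these counts. The median log2 difference of the 10 genes was 1.71 with all libraries and 1.96 without these 2. In the same 2 libraries the summed FPKM of 6 root cap genes was the highest of its label, 1581 in EZ day 6 replicate 2 and 2280 in MZ day 6 replicate 2; EZ day 7 replicate 2 was close to the first, at 1575. The summed FPKM of 8 genes of dividing cells was 1224 in EZ day 6 replicate 2, within the range of the other libraries of its label. In MZ day 6 replicate 2 it was 1086, the highest under MZ, where the next was 787 and the lowest library under EZ was at 1151. Their part in the day 6 values was not tested.

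In 2 of the 10 groups, EZ day 4 and EZ day 6, the replicates differed in the same direction for all 7 chaperones and co-chaperones. In EZ day 4, replicate 2 was higher than replicate 1 for 7 of 7 chaperones and co-chaperones, with a median log2 gap of 1.42 between them, while the median gap of all genes was 0. HSP90.1 read 13.4 and 59.3 FPKM there, and HSP101 9.24 and 34.2. In EZ day 6 replicate 1 was higher for 7 of 7, with a median gap of 1.35, while the median gap of all genes was 0.22 in the same direction. The median absolute gap of all genes was 0.597 there, the largest of the 10 groups, and 0.486 in EZ day 4. In MZ day 6 replicate 2 was higher for 6 of 7, also by 1.35, where the median gap of all genes was 0. The mean log2 level of the 7 genes ran from 3.02 in EZ day 6 replicate 2 to 5.76 in EZ day 4 replicate 2 under EZ, and from 1.91 in MZ day 7 replicate 2 to 3.57 in MZ day 6 replicate 2 under MZ. The mean of 15 small heat shock proteins had its lowest and highest EZ libraries and its highest MZ library in common with them.

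**Figure D3:**
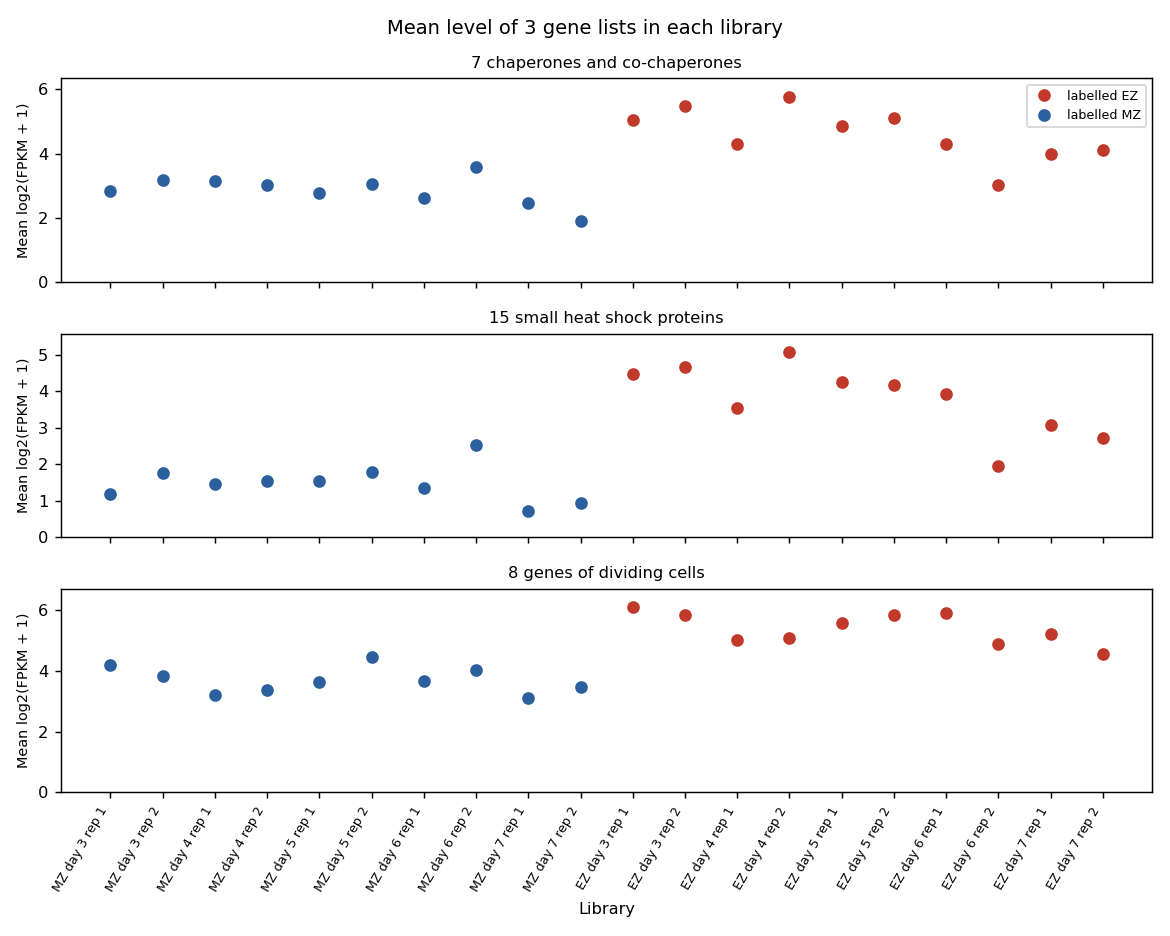
Mean log2(FPKM + 1) of 7 chaperones and co-chaperones, 15 small heat shock proteins and 8 genes of dividing cells in each of the 20 libraries, blue for those labelled MZ and red for those labelled EZ. The first 2 lists are lowest under EZ in EZ day 6 replicate 2 and highest under MZ in MZ day 6 replicate 2, and the 8 genes of dividing cells are at 4.57 or above in each red library and at 4.47 or below in each blue one.

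Other gene lists were measured between the labels beside the chaperones, where 20.6% of all genes passed as higher and 7.77% as lower under EZ. The mean log2 level of the 8 genes of dividing cells was 4.57 to 6.10 under EZ and 3.10 to 4.47 under MZ. The summed FPKM of 11 wound and touch genes, such as JAZ1 and TCH4, was 1639 to 2915 under EZ and 2299 to 3251 under MZ, and 1 of them passed the test as higher and 4 as lower under EZ, or 0 and 5 with median-of-ratios factors. The summed FPKM of 6 root cap genes was 394 to 1581 under EZ and 708 to 2280 under MZ, and 1 of them passed as higher and 3 as lower under EZ. Of these 3 lists only the meristem factor PLT1 was listed at 0, in at least 1 library labelled MZ. The part of any of these, or of depth, in the difference of the chaperones was not tested.

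The next comparison asked whether the 10 genes changed with age. None of them passed the adjusted threshold; the fitted slopes of the 7 chaperones and co-chaperones were negative under both labels and those of DREB2A positive, where 54.6% of all genes had a slope below 0 under EZ and 64.7% under MZ. By limma, 0 of the 10 passed an adjusted p of 0.05 for any difference among ages under EZ, where 0.0537% of all genes did, and 0 under MZ, where 0.412% did. At an unadjusted p of 0.05, 3 passed under EZ, HSP90.1, HSP70B and BAG6, where 7.99% of all genes did, and 0 under MZ, where 9.47% did. HSP90.1 averaged 41.8, 36.4, 24.9, 6.74 and 9.79 FPKM at days 3 to 7 under EZ, and 6.65, 5.80, 4.32, 5.30 and 1.92 under MZ. Under EZ both replicates of day 3, at 31.6 and 52.0 FPKM, lay above both of day 7, of which the higher was at 14.0.

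Linear slopes put the same values on 1 scale. Under EZ the slope of HSP90.1 was -0.63 ± 0.16 per day (SE, n = 20; limma p 0.00111, adjusted p 0.342), that of BAG6 -0.45 ± 0.12 (p 0.00248, adjusted p 0.447) and that of HOP3 -0.34 ± 0.11 (p 0.00695, adjusted p 0.503). FES1A, HSP70 and HSP70B had slopes of -0.36, -0.32 and -0.29 with limma p of 0.00913, 0.0168 and 0.0422. HSP101 had -0.27 ± 0.16 (limma p 0.111). So 6 of the 10 genes had a negative slope at an unadjusted p below 0.05, where 4.08% of all genes had. DREB2A alone had a positive one, where 4.25% had. After adjustment 0 passed, where 0.00448% did downward and 0.00895% upward. The 7 chaperones and co-chaperones moved together between the replicates of EZ day 4 and of EZ day 6. Their slopes are therefore not independent results, and the count was not tested against the share. Under MZ the 7 chaperones and co-chaperones had slopes from -0.30 for HSP90.1 to -0.09 for HSP70, none at an unadjusted p below 0.05 by limma, where 10.5% of all genes had a negative slope at that level. DREB2A alone had a positive one, where 2.48% of all genes had. After adjustment 0 of 10 passed under MZ, where 0.0672% of all genes passed upward and 0.851% downward.

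DREB2A had positive slopes under both labels. It averaged 556, 643, 762, 907 and 1041 FPKM at days 3 to 7 under EZ, and 679, 515, 795, 1023 and 961 FPKM under MZ. Both libraries of day 7 lay above both of day 3 under each label. Its slope was 0.22 ± 0.07 per day (SE, n = 20) under EZ and 0.19 ± 0.07 under MZ, with limma p of 0.00825 and 0.0194 and adjusted p of 0.510 and 0.261. The spread of DREB2A between replicates, 0.29 on the log2 scale over all groups, was the smallest of the 10 genes, and that of HSFA2, 0.89, the largest. In every group DREB2A read higher in replicate 2 than in replicate 1. The log2 gap, replicate 1 minus replicate 2, was -0.006 under EZ and -0.037 under MZ at day 3. It was -0.815 and -0.431 at day 6, and -0.414 and -0.632 at day 7. Under EZ replicate 1 went from 554 FPKM at day 3 to 892 at day 7, and replicate 2 from 557 to 1190. Under MZ they went from 670 to 754 and from 687 to 1168. HSFA2 had slopes of -0.09 ± 0.18 and 0.11 ± 0.18, and HSFA7A of 0.15 ± 0.12 and 0.20 ± 0.12, under EZ and MZ (SE, n = 20), none at an unadjusted limma p below 0.05.

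**Figure D4:**
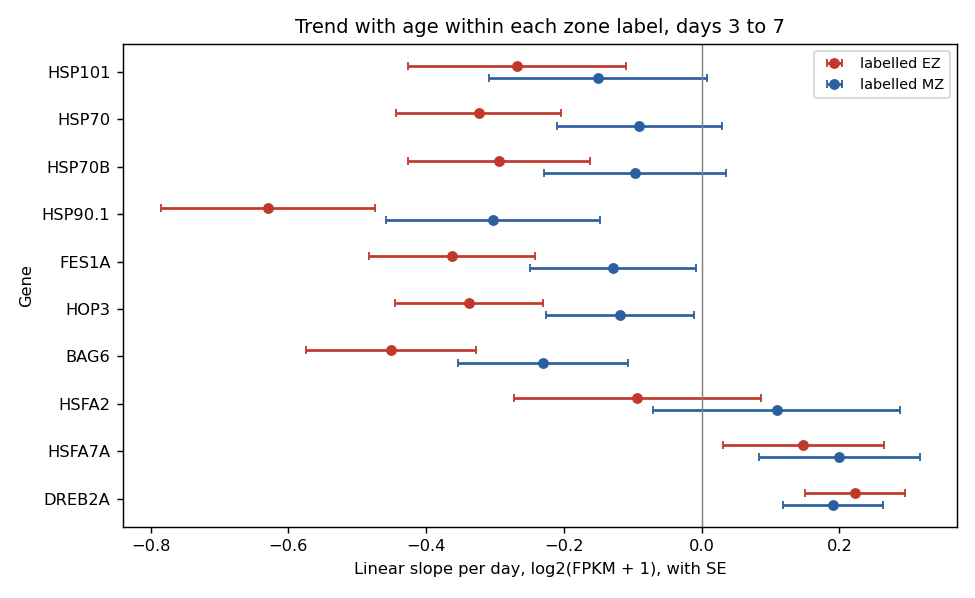
Linear slope per day over days 3 to 7 in log2(FPKM + 1), with its SE from limma as a horizontal bar, for each gene under EZ (red) and under MZ (blue). The slopes of the 7 chaperones and co-chaperones are negative under both labels, from -0.63 for HSP90.1 under EZ to -0.09 for HSP70 under MZ, and those of DREB2A positive, 0.22 and 0.19.

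Averaged over both labels, a trend added after the data were seen, the slope was -0.47 ± 0.11 per day for HSP90.1, -0.34 ± 0.09 for BAG6 and 0.21 ± 0.05 for DREB2A (SE, n = 20), with adjusted p of 0.0740, 0.0876 and 0.0828 by limma. At an unadjusted p of 0.05, 5 slopes were negative and 1 positive, where 11.5% and 4.96% of all genes were. As above, the negative slopes are not independent of each other. After adjustment 0 of 10 passed, where 0.148% of all genes passed downward and 0.094% upward. With 1 library left out, this slope was -0.525 to -0.407 for HSP90.1 and 0.175 to 0.238 for DREB2A. Of the 10 genes, any call came only from the fit without EZ day 6 replicate 1, which left that group with replicate 2 alone. With 1 library in that group, and replicate 2 the lowest library labelled EZ for 7 of 7 chaperones and co-chaperones, nothing is read from that fit. The zone difference itself did not pass for a change with age in any of the 10 genes: the F test called 0, where 0.0448% of all genes were called, and its linear trend 0, where 0.00448% were called upward and as many downward. At an unadjusted p of 0.05 both called 0 of 10 as well, where 4.62% and 6.11% of all genes were called. For HSP90.1 the slope under EZ minus that under MZ was -0.33 ± 0.22 per day (SE, n = 20; limma p 0.159).

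The other genes of the pathway were tested between the labels; the lists were made by family, with results of these data known. Of 74 such genes 69 passed the filter on low values, and by limma 28 were higher and 4 lower under EZ, where 20.6% of all genes were higher and 7.77% lower. For all genes that split moved with the scaling, to 12.5% and 12.6% when quantile normalised and to 17.2% and 12.3% with median-of-ratios factors, while the 69 genes gave 28 and 4, and 27 and 6. With 1 library left out the counts were 27 to 31 and 1 to 6. Their median log2 difference was 0.31, against 0.15 for all genes.

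The large chaperone families were mostly on the side of the libraries labelled EZ. Of 6 other HSP90 genes 5 were higher. HSP90.2 (AT5G56030), a constitutive cytosolic form, was at 369 ± 116 FPKM (SD, n = 10) against 88.6 ± 25.6 (SD, n = 10), with every library labelled EZ above every one labelled MZ, and a difference of 2.02 ± 0.18 (SE, n = 20). HSP90.3 (AT5G56010) and HSP90.4 (AT5G56000) differed by 1.30 and 1.59; these 3 genes share from 28.2% to 34.8% of their 32-base words with other genes, so their separate levels are less certain, while HSP90.1 shares 0. HSP90.7, the form of the endoplasmic reticulum, did not pass, at 0.17 ± 0.14.

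Of 7 tested cytosolic HSP70 genes 5 were higher. The constitutive HSC70-1 (AT5G02500) averaged 1423 ± 337 FPKM (SD, n = 10) against 607 ± 144 (SD, n = 10), a difference of 1.22 ± 0.15 (SE, n = 20), HSC70-2 (AT5G02490) differed by 2.56 ± 0.44 and HSP70-14 (AT1G79930) by 0.81 ± 0.10. Of 8 organelle HSP70 genes, 4 were higher and 1 lower. The 4 higher ones are forms of mitochondria and plastids, led by cpHSC70-2 (AT5G49910) at 1.37 ± 0.21, mtHSC70-2 (AT5G09590) at 1.30 ± 0.21 and mtHSC70-1 (AT4G37910) at 1.23 ± 0.23. The lower one is BIP3, a stress-induced HSP70 of the endoplasmic reticulum, at -1.18 ± 0.38, named after its value was seen; with median-of-ratios factors 3 were lower, BIP3, BIP1 and HSP70-17. Of 4 tested HSP100 genes 3 were higher: the mitochondrial CLPB4 (AT2G25140) by 1.26 ± 0.17, the plastid CLPB3 (AT5G15450) by 0.77 ± 0.18 and CLPC2 (AT3G48870) by 0.75 ± 0.17.

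Of 19 co-chaperones 8 were higher and 2 lower, where 20.6% and 7.77% of all genes were. Their median log2 difference was 0.38, and it was 0.08 when quantile normalised and 0.26 with median-of-ratios factors. The peptidyl-prolyl isomerase ROF1 (AT3G25230) differed by 0.96 ± 0.13 and HOP1 (AT1G12270) by 1.05 ± 0.15 (SE, n = 20), and the HSP90 partner P23-2 (AT3G03773) averaged 14.0 ± 4.42 FPKM (SD, n = 10) against 5.74 ± 2.74 (SD, n = 10). The lower ones were BAG1 and BAG3, relatives of BAG6, at -0.83 ± 0.18 and -0.48 ± 0.16, named after their values were seen.

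Of 17 tested heat shock factors beside HSFA2 and HSFA7A, 2 were higher and 1 lower, where 20.6% and 7.77% of all genes were, with a median of 0.10 against 0.15 for all genes, which turned to -0.07 when quantile normalised and to -0.04 with median-of-ratios factors. HSFA7B (AT3G63350), a close relative of HSFA7A, read 2.83 to 9.98 FPKM under EZ and 0 to 4.04 under MZ, a difference of 1.63 ± 0.23 (SE, n = 20). HSFB4 (AT1G46264), known as SCHIZORIZA for its role in cell fate in the root, differed by 2.46 ± 0.57 and was listed at 0 in libraries of both labels, and HSFA3 (AT5G03720), the target of DREB2A, by -0.80 ± 0.26. HSFA3 no longer passed without any single one of 10 libraries, each replicate 1 under MZ and each replicate 2 under EZ, with limma adjusted p of 0.0549 to 0.0679. The 4 HSFA1 genes, which start the response, did not pass: HSFA1A (AT4G17750) was at -0.04 ± 0.29, HSFA1B (AT5G16820) at 0.17 ± 0.19, HSFA1D (AT1G32330) at 0.24 ± 0.18 and HSFA1E (AT3G02990) at 0.28 ± 0.18, with HSFA1B and HSFA1D below 0 after quantile normalisation. Of 8 tested partners and targets of the factors 1 passed, the heat-inducible coactivator MBF1C (AT3G24500), at 44.6 ± 17.9 FPKM (SD, n = 10) against 16.7 ± 5.59 (SD, n = 10) and a difference of 1.33 ± 0.23.

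**Figure D5:**
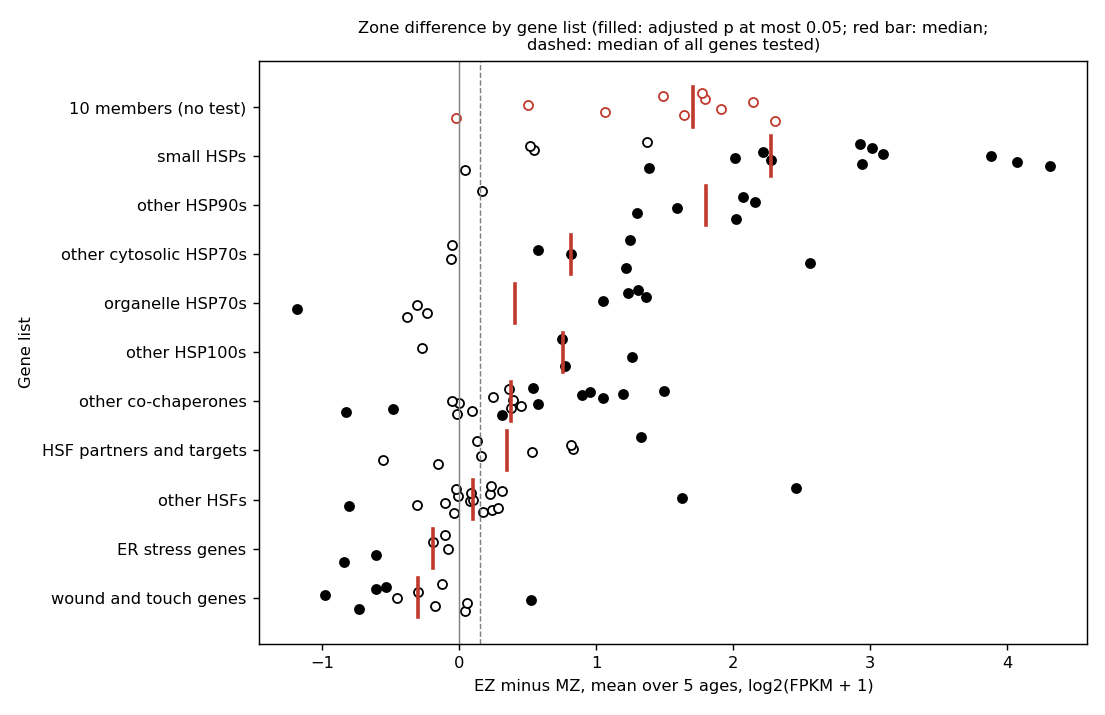
Difference between zone labels, EZ minus MZ averaged over 5 ages in log2(FPKM + 1), 1 point per gene, by gene list; filled points passed an adjusted p of 0.05 by limma, red bars are list medians and the dashed line is the median of all genes, 0.15. The 10 genes described here, shown in red with no test, have a median of 1.71. Small heat shock proteins have 2.28, other HSP90 genes 1.81 and other heat shock factors 0.10 (-0.07 after quantile normalisation). Genes of endoplasmic reticulum stress and of wounding have medians of -0.19 and -0.30. Of the lists not drawn, genes of dividing cells have a median of 1.65, of elongating and hair cells -0.88 and of the root cap -0.40.

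Genes of neighbouring stress programmes gave other counts. Of 5 genes of the unfolded protein response of the endoplasmic reticulum, 0 were higher and 2 lower, with a median of -0.19. Of 15 small heat shock proteins, which hold unfolded proteins until HSP70 and HSP101 act, 11 were higher and 0 lower, with a median of 2.28, above that of the 10 genes here; the difference between the 2 medians was not tested. With age, 1 of the 69 genes was called in any slope: HSBP (AT4G15802), a binding partner that restrains heat shock factors, at -0.32 ± 0.06 per day under MZ (SE, n = 20; limma adjusted p 0.0295). That call ended under both other scalings and without any single one of 8 libraries, those of days 3, 4 and 7 under MZ and of day 3 under EZ. Under EZ 0 of 69 passed by limma, and 1 had a positive and 14 a negative slope at an unadjusted p of 0.05, where 4.25% and 4.08% of all genes had. Of the small heat shock proteins 15 of 15 had a slope below 0 under EZ, where 54.6% of all genes had. Of these, 8 had an unadjusted limma p below 0.05. After adjustment 0 of 15 passed under either label. In the trend over both labels, added after the data were seen, 2 of 15 passed downward by limma, where 0.148% of all genes did.

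The patterns most like that of HSP101 over the 20 libraries, with the mean of each zone label subtracted first, were scored over 12831 genes by Pearson's r as a description. Among the 10 genes FES1A came closest, at 0.86 and rank 2, then BAG6 at 0.76 (rank 34) and HSP90.1 at 0.68 (rank 257). HSP70 and HOP3 were at 0.62 (ranks 663 and 680), HSP70B at 0.38 (rank 2847) and HSFA2 at 0.37 (rank 2929). HSFA7A was at 0.21 (rank 4945) and DREB2A at -0.13 (rank 10047). The closest genes outside them were AT1G69250, AT2G40630, WHY3, ANTR2 and AT1G29070, from 0.86 to 0.82. The genes compared come from the same libraries, whose depth differs, and the r values carry no test. They also use the 0 listed for HSP101 in MZ day 7 replicate 2. In that library 6 of the 7 chaperones and co-chaperones, HSP101 among them, were at their lowest under MZ and HSP70B at its highest. The weight of that library in the ranks was not tested.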

How the data were processed

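The authors deposited FPKM per gene and library. The notes name the tools Cufflinks 2.1.1 and TopHat2 2.0.13 beside the build TAIR10, per the submitters' processing notes, with roles and settings not given in the sources used here. No scaling between libraries is stated in them. Low-input cDNA kits were used, per the labels' protocols, and use of strand in counting is not given, so reads of overlapping genes cannot be told apart. The 10 genes share at most 5.05% of their 32-base words with transcripts of other genes. Depth was recovered from 5389 transcripts of at least 2000 bases, with 75.3% to 91.1% of values within 0.1 of whole multiples.

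A gene was kept when 2 or more libraries reached 1 FPKM (22335 genes), and log2(FPKM + 1) was fitted by limma 3.58.1 (R 4.3.3) with a mean per group, a variance trend and 1 spread for all 20 libraries. Contrasts were EZ minus MZ over 5 ages, any difference and the linear trend with age within each label, and how the contrast of labels varied across ages. P values were adjusted by Benjamini-Hochberg over all genes tested, two-sided, with a threshold of 0.05; the fits were tested on simulated data. The members and lists were chosen with earlier results of these data known. Named beside the 10 are up to 3 called genes a list by smallest p, the HSFA1 genes, called age trends and the 5 closest patterns to HSP101. Alternatives were the pseudocount, the filter, 2 other scalings, library weights, a replicate block and leaving out libraries. Replicates are biological, per the design text of the series.

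Promoters and names came from the RefSeq annotation of TAIR10.1, whose name differs from the authors' TAIR10; positions printed are TAIR10.1 positions.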

Additional observations from a re-analysis of the deposited data

How the results depend on the processing

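Under every alternative run, no age test called any of the 10 genes, except the trend over both labels in the fit without EZ day 6 replicate 1. That fit left 1 library in its group, so nothing is read from it. Their median zone difference, 1.71, was 1.53 to 1.84 with 1 library left out. It was 1.51 under quantile normalisation and 1.58 under median-of-ratios scaling. Of 69 related genes, the 28 higher under EZ became 27 to 31 with 1 library left out. The 4 lower became 2 with no filter, 7 with the replicate block and 1 to 6 with 1 library left out (1 without MZ day 3, 4, 6 or 7 replicate 1, or EZ day 3, 5, 6 or 7 replicate 2). The trend under MZ called 1 of them, 0 under quantile normalisation, 0 under median-of-ratios scaling and 0 to 2 with 1 library left out; any difference with age under MZ called 0 to 1 and the trend over both labels 0 to 1. The cause of these changes was not tested. Same-numbered replicates of the 2 labels deviated with correlations of 0.00956 to 0.347 over the 5 ages, so the number was not taken as a pairing. These values, none called, changed sign. With a pseudocount of 0.1, the difference of slopes of HSP101 was 0.154, the MZ slope of HSFA2 -0.033 and its slope over both labels -0.069. Without both day 6 replicate 2 libraries these were 0.042, -0.032 and -0.063, and the zone difference of HSFA1A was 0.191; with a pseudocount of 5 that was 0.014. Quantile normalisation gave -0.175 for HSFA1B and -0.012 for HSFA1D, and median-of-ratios scaling -0.013 for the difference of slopes of DREB2A. With 1 library left out, the difference of slopes was -0.256 to 0.021 for HSP101, -0.21 to 0.106 for HSFA7A and -0.032 to 0.094 for DREB2A. The MZ slope was -0.188 to 0.007 for HSP70, -0.211 to 0.017 for HSP70B and -0.089 to 0.308 for HSFA2. The EZ slope was -0.201 to 0.015 for HSFA2 and -0.01 to 0.306 for HSFA7A, the slope over both labels -0.091 to 0.107 for HSFA2, and the zone difference -0.233 to 0.156 for HSFA1A. The depth of the shallowest library, 4.14 M fragments, limits the genes of a few FPKM.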
